A study of Mus musculus with 2 samples.

Results

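The cytotoxic granule genes described here are Gzma, Gzmb, Gzmk, Prf1, Nkg7 and Ctsw, 6 of the 26981 genes listed over both libraries. They were chosen by name, and all 6 were found in both the NW and the ABX file. Their counts were read in cells with at least 500 gene UMIs (unique molecular identifiers, each standing for 1 captured mRNA molecule), at least 200 genes and at most 25% mitochondrial UMIs, and were described across NK-like, ILC1-like, NKT-like and CD8+ T-like cells and the other cells of the tissue.

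The cells came from the visceral adipose tissue (VAT, here the epididymal fat) of wildtype C57BL/6 mice at 15 weeks of age. CD45+ cells were enriched with magnetic beads and run with AbSeq oligonucleotide-tagged antibodies on the BD Rhapsody single-cell platform, in which each cell shares a microwell with a barcoded bead. The NW mice drank normal water, and the ABX mice were given antibiotics (ampicillin, streptomycin, colistin and vancomycin in the drinking water) to deplete the gut microbiota. There was 1 library per condition, and the number of mice behind each was not stated.

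Cytotoxic lymphocytes carry granules that they release onto a target cell. Perforin, encoded by Prf1, lets the granule proteases pass into the target, and granzymes, serine proteases encoded by Gzma, Gzmb and Gzmk, then cut proteins inside it. Nkg7 encodes a membrane protein of the granules that takes part in their release, and Ctsw encodes cathepsin W, a cysteine protease found in NK cells and cytotoxic T cells. NK cells of adipose tissue hold such granules ready, whereas T cells build them up after activation.

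On GRCm38 with the GENCODE annotation, Gzma lies on chromosome 13 from 113093825 to 113100981 and Gzmk on the same chromosome from 113171608 to 113225908, both on the minus strand, and the RefSeq models of this pair are 70.6 kb apart. Gzmb lies on chromosome 14 from 56258838 to 56262260 on the minus strand, away from the other granzymes described here. Prf1 is on chromosome 10 from 61297833 to 61304680 and Nkg7 on chromosome 7 from 43437073 to 43438249, both on the plus strand. Ctsw is on chromosome 19 from 5465043 to 5468507 on the minus strand. All 6 are protein-coding genes. Gzmk overlaps Esm1 and Ctsw overlaps Fibp on the other strand. No 50-base stretch of any member's annotated transcripts was found in the transcripts of another gene, so near-identical copies did not share their reads at that length.

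The sequences just upstream of the transcription starts of 5 members were set side by side. They were taken from RefSeq for GRCm38.p6 and are written 5′ to 3′ on the strand of the gene, in lower case, with the core RUNX motif TGTGGT, or its reverse complement ACCACA, in capitals. The windows were chr13:113100982-113101231 (minus strand) for Gzma, chr14:56262335-56262584 (minus strand) for Gzmb, chr13:113180966-113181215 (minus strand) for Gzmk, chr10:61297586-61297832 (plus strand) for Prf1 and chr7:43436888-43437072 (plus strand) for Nkg7. Those of Prf1 and Nkg7 stopped short of the RefSeq start where an annotated exon began, at 247 and 185 bases. Ctsw is named only.
Gzma: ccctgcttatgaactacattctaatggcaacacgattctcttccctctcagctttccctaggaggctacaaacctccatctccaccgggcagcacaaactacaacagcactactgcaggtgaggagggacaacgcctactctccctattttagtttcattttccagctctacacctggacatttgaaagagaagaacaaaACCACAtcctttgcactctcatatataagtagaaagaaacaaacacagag
Gzmb: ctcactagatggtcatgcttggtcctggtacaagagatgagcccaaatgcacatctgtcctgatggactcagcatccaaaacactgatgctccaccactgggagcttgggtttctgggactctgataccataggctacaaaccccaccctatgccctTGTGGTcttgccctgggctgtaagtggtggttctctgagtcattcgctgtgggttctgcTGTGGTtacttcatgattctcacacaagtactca
Gzmk: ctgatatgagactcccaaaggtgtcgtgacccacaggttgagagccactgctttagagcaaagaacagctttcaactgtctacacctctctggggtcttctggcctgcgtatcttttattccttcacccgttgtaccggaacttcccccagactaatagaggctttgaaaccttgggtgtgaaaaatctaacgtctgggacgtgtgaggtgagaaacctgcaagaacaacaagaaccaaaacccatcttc
Prf1: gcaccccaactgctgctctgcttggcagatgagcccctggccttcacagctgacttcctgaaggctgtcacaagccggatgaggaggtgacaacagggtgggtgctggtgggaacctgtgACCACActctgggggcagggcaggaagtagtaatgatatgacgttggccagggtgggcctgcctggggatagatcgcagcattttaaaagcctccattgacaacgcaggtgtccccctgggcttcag
Nkg7: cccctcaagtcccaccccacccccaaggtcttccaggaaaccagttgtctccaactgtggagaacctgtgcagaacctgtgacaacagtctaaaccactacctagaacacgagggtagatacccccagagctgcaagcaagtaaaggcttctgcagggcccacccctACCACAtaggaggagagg

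RUNX factors are transcription factors that act in NK cells and CD8+ T cells. The RUNX core was present in 4 of the 5 members, in Gzmb at 2 places, and in 14.2% of the 27025 promoters of the same 250 bases searched on both strands. Gzmk, the member without it, held the core ETS motif GGAAGT and the core T-box motif GGTGTG, which were present in 20% and 16.2% of all promoters. GGAAGT was also found in Prf1, and GGTGTG was also found in Nkg7, within the bases not printed. The AP-1 core TGANTCA was found in Gzmb only (6.87% of all promoters) and the STAT core TTCNNNGAA in Nkg7 only (7.18%). None of the 5 members held TATAAA, which 13% of all promoters did. No 2 of these matches overlapped. A match is a stretch of letters, and whether any factor binds there was not measured.

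The NW library held 12474 cells that passed the filters, with a median of 5092 UMIs, and the ABX library 12724 cells, with a median of 3845.5 UMIs. In the classes that matter here the depth was closer, with medians of 3135 and 3020 UMIs in NK-like cells and 3441 and 3341 in CD8+ T-like cells. Of the barcodes that passed, 196 were present in both libraries, where 179.4 would be shared by chance among the possible barcodes. Levels are given as CPM, the UMIs of a gene per 1000000 gene UMIs of the same cells, with exact 95% Poisson intervals, and shares of cells with exact (Clopper-Pearson) 95% binomial intervals. Counting error is all that the intervals cover. Since each condition had 1 library, no test between NW and ABX was possible, and a difference between the conditions cannot be told apart from a difference between the libraries.

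Classes were named from surface receptor, lineage and transcription factor genes, with the 6 members and the other cytotoxic genes left out of the clustering and of the marker lists. Genes that vary with the members did take part. NK-like cells numbered 264 in NW and 291 in ABX, with all 10 NK markers detected, among them Eomes in 74.2% and Ncr1 in 79.5% of the cells, and Cd3e in 2.16%. ILC1-like cells, 89 in NW and 161 in ABX, shared Ncr1 (71.6%) and Klrb1c, the gene of NK1.1 (92.4%), with them but had Eomes in 8.0% of cells and Cxcr6 in 52.4%. Their name rested on 4 of 10 markers, and with all 10 antibodies or with 3000 variable genes no cluster took it. NKT-like cells (199 and 317), T cells with NK receptors, had Cd3e in 91.1% and Klrb1c in 67.8% of cells. Zbtb16, the factor that marks invariant NKT cells, was found in 5.43% of them, so the name covers T cells with NK receptors in general. CD8+ T-like cells (149 and 232) had Cd8b1 in 66.1% and Cd3e in 77.7%. The 10 macrophage markers summed to 745 CPM in NW and 522 in ABX in NK-like cells, 820 and 564 in ILC1-like cells, 857 and 520 in NKT-like cells and 3190 and 2980 in CD8+ T-like cells, against 22200 and 19500 in macrophage-like cells, and their part in the values below was not tested.

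The 6 genes were spread over the lymphocytes in clearly different ways. Gzma and Prf1 were highest in NK-like cells, and Nkg7 and Ctsw were shared by all NK receptor-bearing and CD8+ cells. Gzmb was highest in NK- and ILC1-like cells, followed by Treg-like cells in NW and by NKT- and Treg-like cells in ABX. Gzmk stood apart, with its highest level in CD8+ T-like cells in NW and levels in CD8+ and CD4+ T-like cells that overlapped in ABX. Of all Gzma UMIs in a library, NK-like cells held 77.7% in NW and 73.4% in ABX, although they made up 2.12% and 2.29% of the cells. The corresponding shares were 63.0% and 50.9% for Prf1, 34.2% and 26.0% for Nkg7, and 27.2% and 21.3% for Ctsw. For Gzmb, NK-like cells held 24.5% of the UMIs in NW and 37.1% in ABX. For Gzmk they held 2.59% and 7.69%, whereas CD8+ T-like cells held 56.0% in NW and 24.2% in ABX, and CD4+ T-like cells 10.3% and 34.1%, on 116 and 91 Gzmk UMIs in all.

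**Figure D1:**
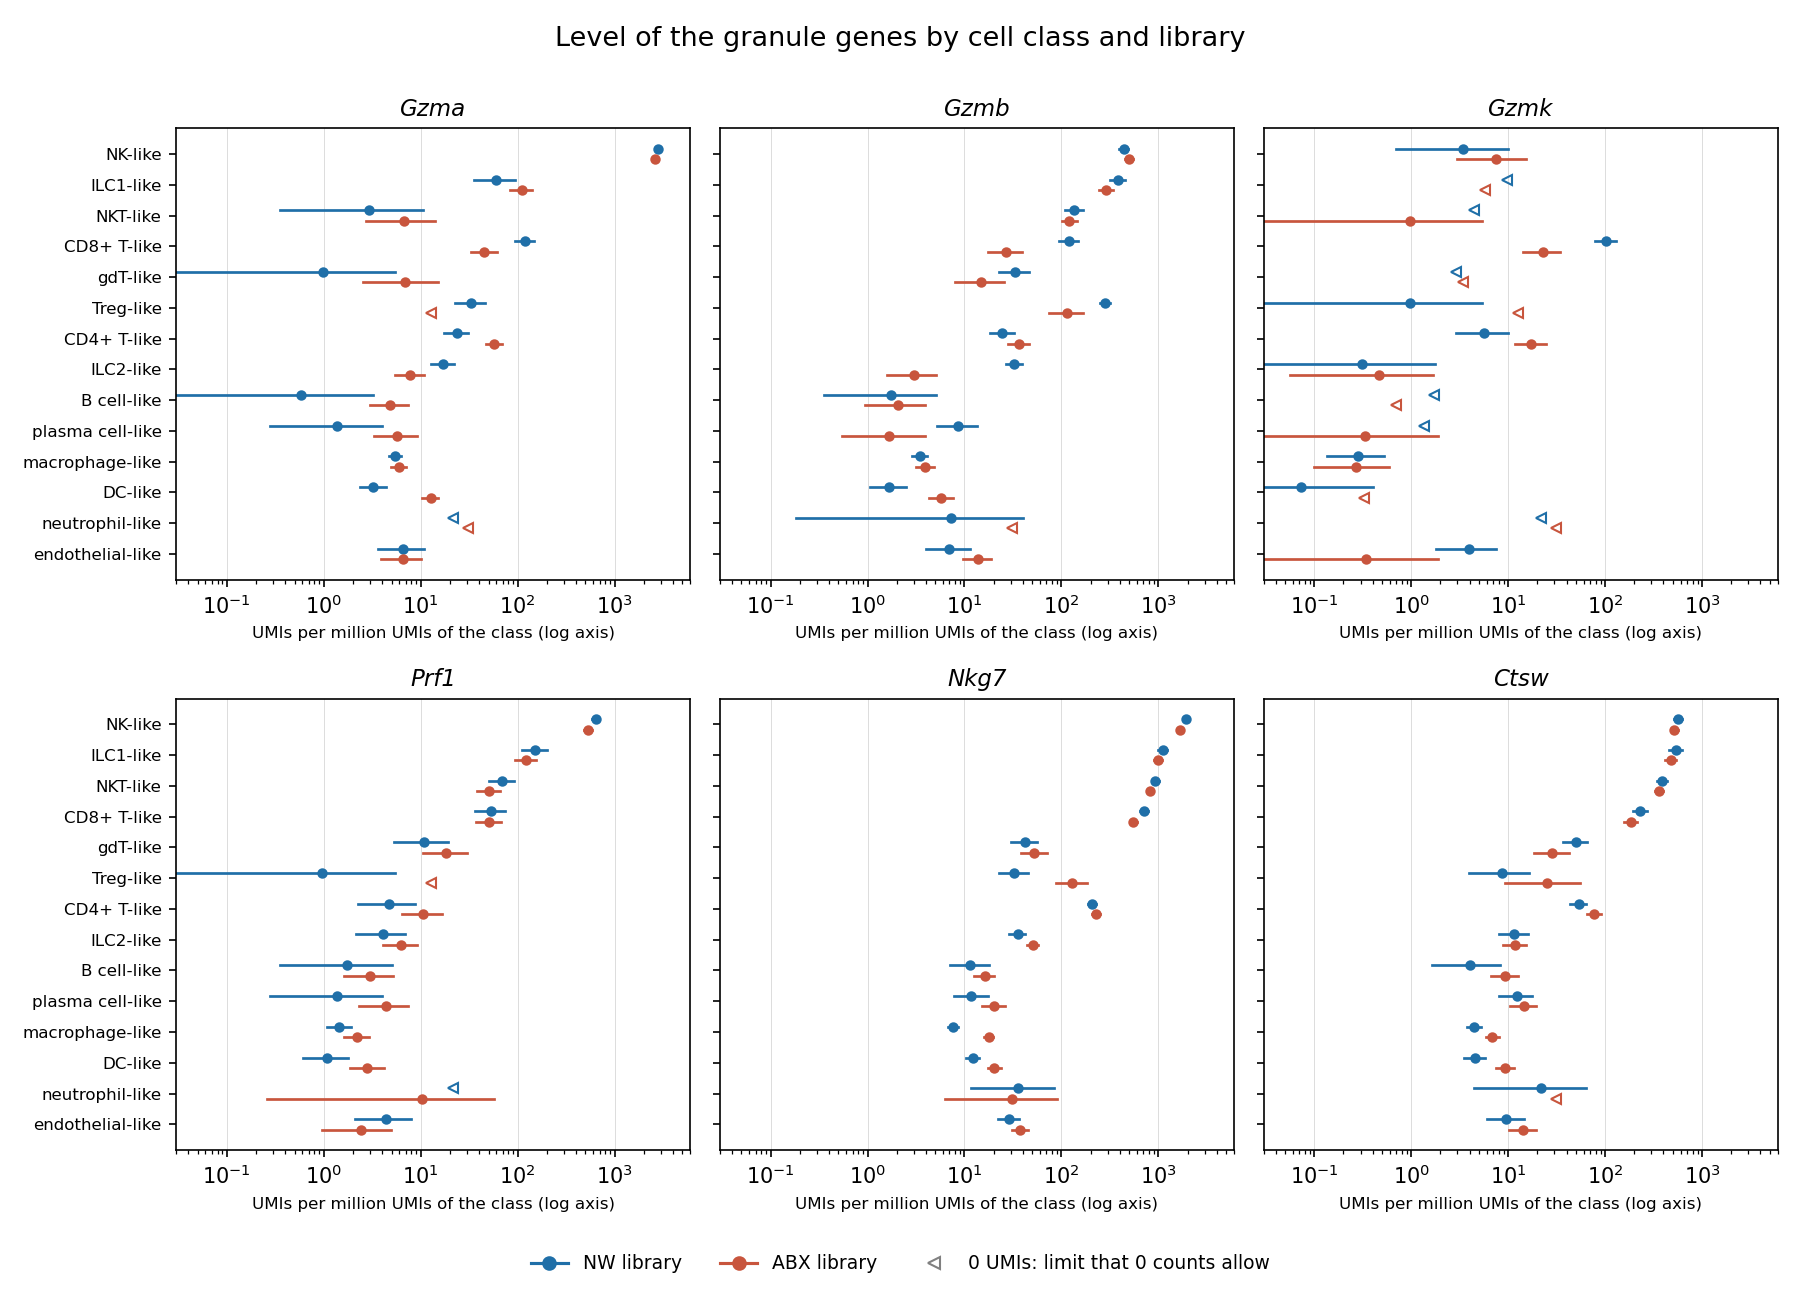
Level of each granule gene in 14 cell classes, in CPM on a log axis, for the NW library (blue) and the ABX library (red). Bars are exact 95% Poisson intervals and open triangles mark the limit set by 3 counts where a class held no UMI. Gzma fell from 2810 CPM in NK-like to 2.92 in NKT-like cells in NW, whereas Nkg7 stayed between 1920 and 707 across the 4 cytotoxic classes.

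Gzma, the granzyme with trypsin-like activity, reached 2810 CPM (95% interval 2700 to 2930) in NK-like cells in NW and 2590 (2490 to 2690) in ABX. ILC1-like cells had 59.0 and 110 CPM, CD8+ T-like cells 118 and 45.3, and NKT-like cells 2.92 and 6.77. Macrophage-like cells, which should lack the gene, had 5.40 and 5.91 CPM, so the level in NKT-like cells was not clearly above theirs. In NW, 81 macrophage-like cells held 190 Gzma UMIs, up to 30 in 1 cell, and the source of these UMIs was not tested. The level in NK-like cells was 47.7-fold (30.1 to 80.6) that in ILC1-like cells in NW and 23.6-fold (18.2 to 31.3) in ABX, and 962-fold (266 to 7950, on 2 UMIs) and 382-fold (185 to 951, on 7 UMIs) that in NKT-like cells. A Gzma UMI was found in 85.6% (80.8% to 89.6%) of NK-like cells in NW and 80.1% (75% to 84.5%) in ABX, against 1.42% and 1.15% of macrophage-like cells, which were deeper (medians 5646 and 4081 UMIs).

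Among ILC1-like cells, 11.2% in NW and 5.59% in ABX had a Gzma UMI, in the opposite order to the CPM, and no order between the libraries is read from it. The UMIs behind these values were 18 in 10 NW cells and 57 in 9 ABX cells, of which the top 3 cells held 64.9%.

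Prf1, the gene of perforin, was also highest in NK-like cells, but the order below them was another than for Gzma. NK-like cells had 636 CPM (584 to 691) in NW and 532 (486 to 581) in ABX, ILC1-like cells 151 and 121, NKT-like cells 68.7 and 50.3, and CD8+ T-like cells 52.8 and 50.5, all above the 1.45 and 2.19 CPM of macrophage-like cells. NK-like cells stood 4.21-fold (3.12 to 5.82) above ILC1-like cells in NW and 4.39-fold (3.37 to 5.80) in ABX. NKT-like and CD8+ T-like cells, next to each other in this order, had overlapping intervals in both libraries. A Prf1 UMI was found in 74.2% and 66.7% of NK-like, 33.7% and 31.1% of ILC1-like, 16.1% and 12.9% of NKT-like and 16.1% and 15.5% of CD8+ T-like cells.

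Nkg7 and Ctsw were the members held in common. Nkg7 reached 1920 CPM in NW and 1660 in ABX in NK-like cells, 1110 and 991 in ILC1-like cells, 934 and 819 in NKT-like cells and 707 and 552 in CD8+ T-like cells. The gap between NK-like and ILC1-like cells was 1.72-fold (1.53 to 1.94) in NW and 1.67-fold (1.51 to 1.85) in ABX, far smaller than for Gzma. A UMI of Nkg7 was present in 97.3% and 95.9% of NK-like cells, and still in 74.5% and 72.8% of CD8+ T-like cells. CD4+ T-like cells had 208 and 227 CPM, and gdT-like cells 41.7 and 52.6.

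Ctsw was at 562 and 518 CPM in NK-like and at 538 and 473 in ILC1-like cells. The ratio of NK-like to ILC1-like cells, 1.04 (0.874 to 1.25) in NW and 1.09 (0.937 to 1.28) in ABX, did not differ from 1 beyond its counting interval. Below them stood NKT-like cells, at 386 and 360 CPM, and CD8+ T-like cells, at 231 and 184. Ctsw had the ratio closest to 1 among the 5 members with UMIs in both classes, and a UMI of it was found in 75.8% and 71.8% of the former and 79.8% and 76.4% of the latter.

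Gzmb, the granzyme that cuts after aspartate and triggers apoptosis, was not ordered in the same way. NK-like cells had 438 CPM (395 to 484) in NW and 502 (458 to 549) in ABX. ILC1-like cells had 380 (314 to 456) and 287 (242 to 337), so that both classes overlapped in NW, with a ratio of 1.15 (0.933 to 1.43), and differed 1.75-fold (1.45 to 2.12) in ABX. NKT-like cells followed with 136 and 121 CPM, and CD8+ T-like cells with 120 and 26.8. Treg-like cells, which are not counted among the cytotoxic classes, had 283 CPM (252 to 317) in NW and 113 (74.5 to 165) in ABX, above NKT-like cells in NW, while Prf1 was found in them with 1 UMI in NW and none in ABX. In Treg-like cells Gzmb made up 78.8% and 42.2% of the UMIs of the 6 members, against 6.87% and 8.65% in NK-like cells.

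Gzmb was detected in few cells for its level. In NK-like cells 36.0% (30.2% to 42.1%) in NW and 40.2% (34.5% to 46.1%) in ABX had a UMI of it, fewer than the 75.8% and 71.8% with Ctsw at about the same CPM. Its UMIs were concentrated. The 3 cells with the most Gzmb held 23.9% and 14.2% of the Gzmb UMIs of NK-like cells and 75% and 38.3% of those of ILC1-like cells, whereas for Ctsw the corresponding shares in NK-like cells were 5.67% and 4.94%.

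Gzmk, a tryptase-like granzyme that in mice is found in T cells of the effector memory type, was nearly missing from the innate classes. NK-like cells held 3 UMIs in NW and 7 in ABX (3.41 and 7.46 CPM), ILC1-like cells none in either library, which allows up to 9.84 and 5.77 CPM by the limit of 3 counts, and NKT-like cells none in NW and 1 in ABX. CD8+ T-like cells held 65 UMIs in NW and 22 in ABX, or 101 CPM (77.9 to 129) and 22.7 (14.2 to 34.3). That was 29.6-fold the NK-like level in NW and 3.04-fold in ABX, on the 3 and 7 NK-like UMIs. Taken the other way, NK-like cells had 0.0338-fold (0.00679 to 0.103) the CD8+ T-like level in NW and 0.329-fold (0.119 to 0.797) in ABX. Macrophage-like cells were at 0.284 and 0.269 CPM. Among the other classes, CD4+ T-like cells held 12 and 31 UMIs, or 5.65 (2.92 to 9.86) and 17.3 (11.7 to 24.5) CPM, and 12 of the 31 ABX UMIs were in 1 cell. The level in CD8+ T-like cells was above that in CD4+ T-like cells in NW, and their intervals overlapped in ABX.

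Many NK-like cells held UMIs of several members, much of which follows from how common each member was there. In NW, Gzma and Nkg7 were both found in 84.1% of NK-like cells, and the product of their single shares was 83.3%. For Gzma and Ctsw these values were 64.4% and 64.9%, for Gzma and Prf1 67.0% and 63.6%, and for Gzma and Gzmb 33.7% and 30.8%. The number of members with a UMI had a median of 4 per NK-like cell in both libraries, 2 per ILC1-like and NKT-like cell in both, and 2 in NW and 1 in ABX per CD8+ T-like cell. At least 4 members were present in 63.3% of NK-like cells in NW and 55.7% in ABX, in 11.2% and 9.32% of ILC1-like, 3.52% and 2.52% of NKT-like and 10.7% and 4.74% of CD8+ T-like cells. All 6 were found in 1 NK-like cell in NW and 3 in ABX. In macrophage-like cells 93.7% and 93.3% held no member UMI at all.

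**Figure D2:**
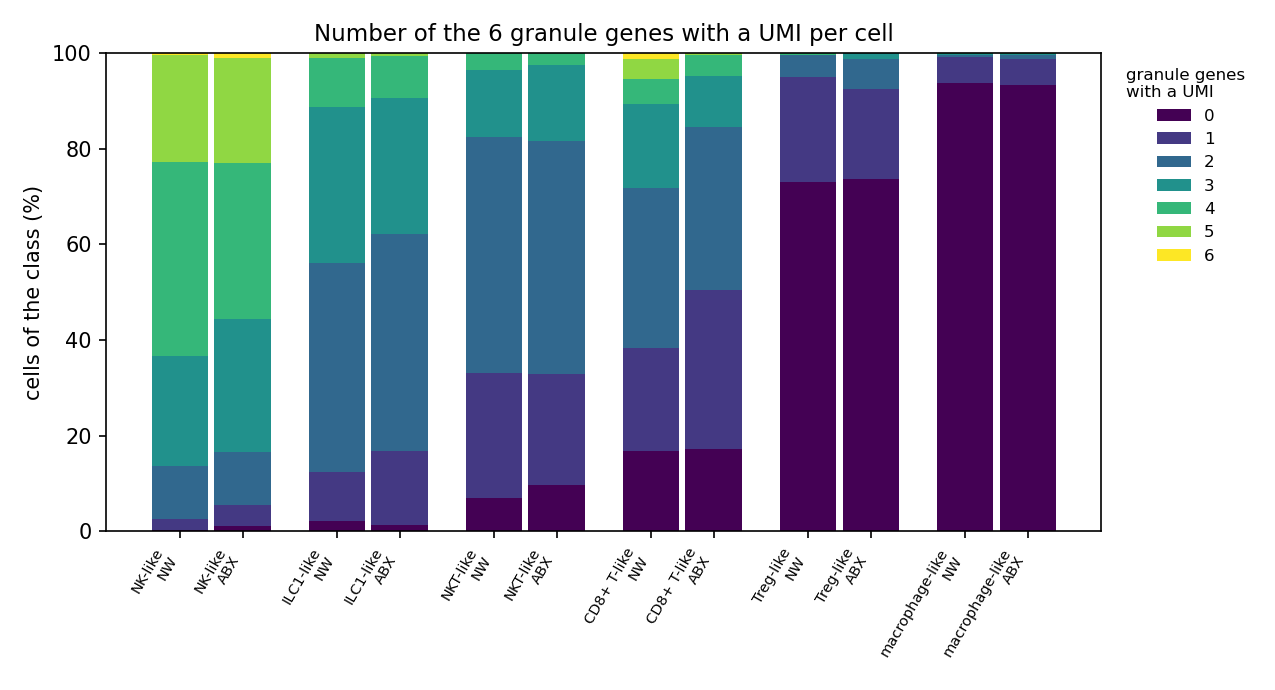
Number of the 6 granule genes with at least 1 UMI in a cell, as the percent of cells of each class and library. At least 4 genes were found in 63.3% and 55.7% of NK-like cells in NW and ABX, and none in 93.7% and 93.3% of macrophage-like cells.

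Gzmb in NK-like cells lay mostly within the cells that also had Gzma. Those were 226 of 264 NK-like cells in NW and 233 of 291 in ABX, so the groups without Gzma were small. A Gzmb UMI was found in 39.4% of NK-like cells with Gzma and 15.8% of those without in NW, and in 46.8% and 13.8% in ABX, and cells with and without Gzma were of like depth (medians of 3135 and 3149 UMIs in NW, 3035 and 2927 in ABX). Prf1 was found in 78.3% of cells with Gzma and 50% without in NW, and in 70.8% and 50% in ABX. For Ctsw the order turned between the libraries, at 75.2% with and 78.9% without Gzma in NW and 73.8% and 63.8% in ABX. In CD8+ T-like cells, Gzmk was found in 46.2% of NW cells with Gzmb and 15.4% of those without, on 12 cells with both. Cells of a library share their source, and these shares were given as a description.

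The CD62L antibody, against the homing receptor that is high on circulating NK cells, was used to look within the NK-like cells. Its median was 18 UMIs per cell in NW and 15 in ABX, against 3 and 2 in ILC1-like cells. Cells with at least 20 CD62L UMIs (124 in NW, 130 in ABX) had 3040 and 2790 CPM of Gzma, and those below (140 and 161) had 2580 and 2410. The counting intervals did not overlap in either library, but they leave out the spread over cells. That spread was wide, with up to 120 Gzma UMIs in 1 NK-like cell in NW and 71 in ABX, so no order is read from the gap. Gzmb was at 456 and 432 CPM in the former and 419 and 565 in the latter, so its order turned between the libraries. The limit of 20 was set after the antibody counts had been seen. It was the same in both libraries, although NW held 18834984 antibody UMIs over all barcodes and ABX 13286580.

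NKT-like cells were joined from 2 clusters, set side by side here for Gzmb and Prf1. The cluster led by Klra1, a Ly49 receptor gene (114 cells in NW, 180 in ABX), had 197 and 139 CPM of Gzmb and 97.2 and 54.8 of Prf1. The cluster led by Itga1, the gene of the residency integrin CD49a (85 and 137 cells), had 31.8 and 94.4 CPM of Gzmb and 19.9 and 43.6 of Prf1. Both were near the level of macrophage-like cells for Gzma, with at most 7.26 CPM. For Gzmb the intervals were apart in NW, at 157 to 243 and 13.7 to 62.6, and overlapped in ABX, at 111 to 171 and 67.1 to 129. In NW, 1 cell held 33 of the 85 Gzmb UMIs of the Klra1-led cluster. Without the cell with the most UMIs in each cluster and library, a choice made after the data had been seen, the NW levels were 122 (90.9 to 160) and 24.4 (8.95 to 53.1) CPM, still apart, and the ABX levels 120 and 77.9, still overlapping.

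**Figure D3:**
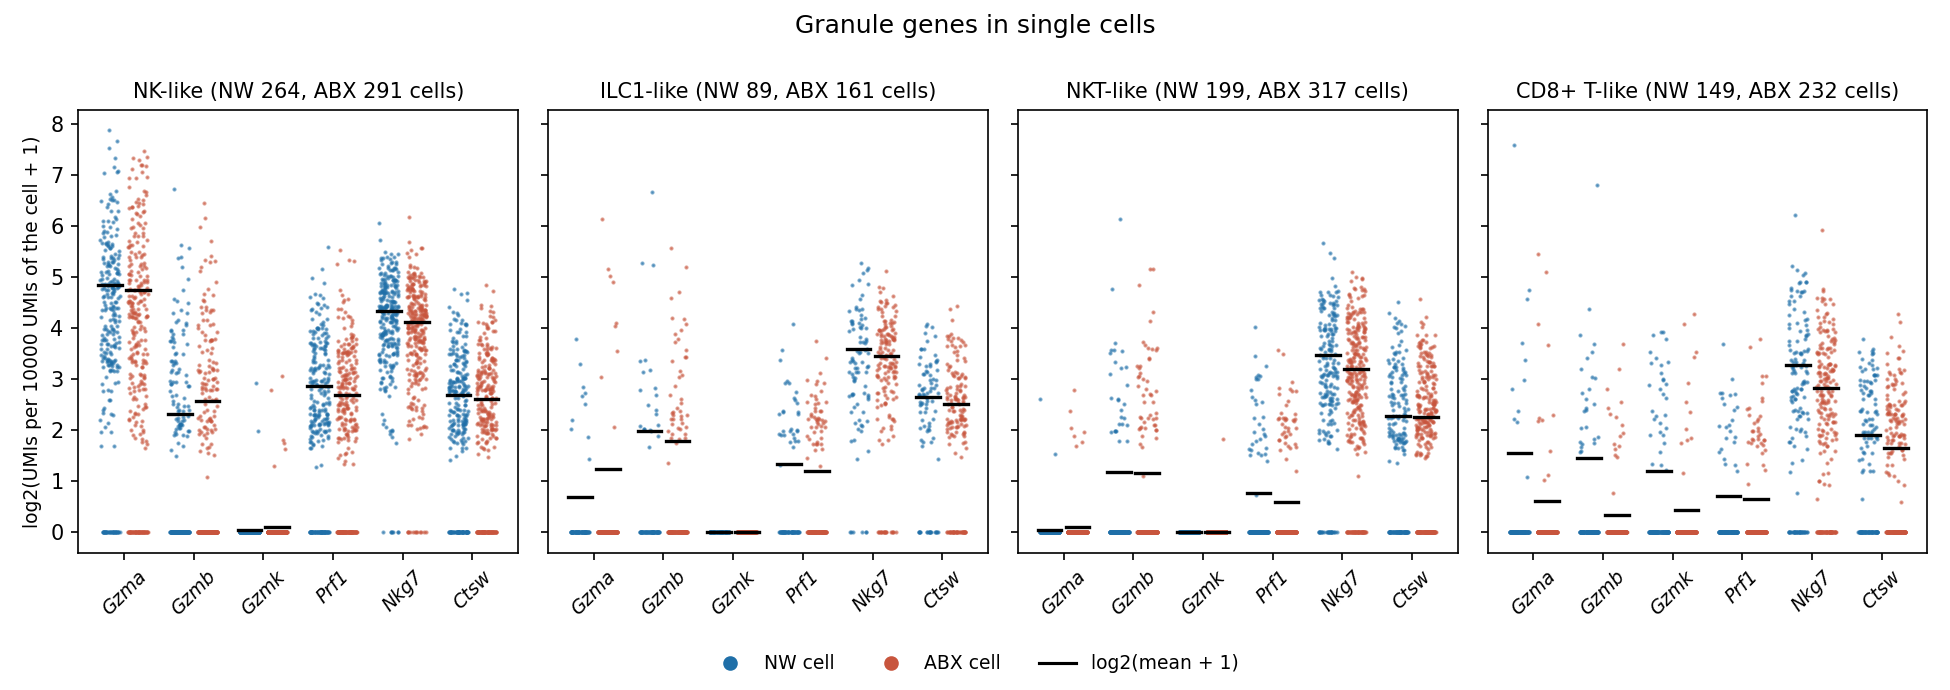
Each point is 1 cell, with the log2 of its UMIs per 10000 UMIs plus 1 for each granule gene, for NW (blue) and ABX (red) cells of the 4 cytotoxic classes. Black lines are the log2 of the mean plus 1. In NK-like cells the Gzma points span from 0 to 235 UMIs per 10000, and in CD8+ T-like cells single NW cells stand far above the rest for Gzma and Gzmb.

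The comparison of ABX with NW asked whether the granule genes of each class differed after depletion of the microbiota. In NK-like cells the members differed little. The log2 ratio of ABX to NW was -0.12 (-0.20 to -0.04) for Gzma, 0.20 (-0.00 to 0.40) for Gzmb, -0.26 (-0.43 to -0.08) for Prf1, -0.21 (-0.31 to -0.11) for Nkg7 and -0.12 (-0.30 to 0.07) for Ctsw. Of the 5 members with at least 100 UMIs over both libraries, 0 differed by 1.5-fold, the size used here to call a difference, against 3.22% of all 3510 genes of this depth in NK-like cells. Their median was -0.12, beside -0.02 over all these genes. Gzmk, with 3 and 7 UMIs, was below that minimum.

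The small differences for Gzma, Prf1 and Nkg7 had counting intervals below 0. The shares of cells with a UMI were lower in ABX for all 3, but their NW and ABX intervals overlapped for each gene. These shares rest on the same UMIs as the ratios and are no separate evidence. Thinned to 1000 UMIs per cell, 73.0% of NK-like cells in NW and 64.7% in ABX kept a Gzma UMI, and 41.6% and 37.0% a Prf1 UMI, and 1 NW cell was too shallow to be thinned. Per cell, Gzma had a median of 6 UMIs in NW and 4 in ABX, and its quartiles were 8.46 and 34.9 per 10000 UMIs in NW and 3.58 and 31.7 in ABX. Across the other definitions of the class and other settings, the log2 ratio ran from -0.27 to -0.01 for Gzma, from -0.41 to -0.18 for Prf1 and from -0.32 to -0.12 for Nkg7.

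The makeup of the granule transcripts in NK-like cells was close between the libraries. Gzma made up 44.2% of the UMIs of the 6 members in NW and 44.6% in ABX, Nkg7 30.1% and 28.5%, Prf1 9.98% and 9.16%, Ctsw 8.82% and 8.92% and Gzmb 6.87% and 8.65%. Because mRNA is captured by its poly(A) tail and each UMI is 1 molecule, these shares do not scale with transcript length, but capture can differ between genes and no order between genes is read from them.

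In ILC1-like and NKT-like cells several ratios rested on few cells. In ILC1-like cells Gzmb had 116 UMIs in NW and 149 in ABX, a log2 ratio of -0.41 (-0.77 to -0.05). This value rested on few cells, since 3 NW cells held 75% of the Gzmb UMIs, and it turned positive under 5 other settings, up to 0.95. Gzma in ILC1-like cells stood at 0.89 (0.11 to 1.75), on 18 and 57 UMIs and thus below the minimum of 100, and ran from 0.09 to 1.33 under other settings. Nkg7 stood at -0.17, Ctsw at -0.18 and Prf1 at -0.32 (-0.89 to 0.27), of which Prf1 turned positive under 4 of 10 settings. Of the 4 members with enough UMIs in ILC1-like cells, 0 differed by 1.5-fold (4.89% of all genes), and in NKT-like cells 0 of 3 did (3.35% of all genes). The ratios in NKT-like cells were -0.19 (-0.34 to -0.04) for Nkg7, -0.10 for Ctsw, -0.45 (-1.05 to 0.15) for Prf1, on 47 and 52 UMIs, and -0.17 (-0.57 to 0.23) for Gzmb. The Gzmb value turned positive under 5 of 13 other settings, up to 0.70, and was 0.31 without the cell with the most UMIs in each library. Nkg7 turned positive under 3 of 13, up to 0.04.

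**Figure D4:**
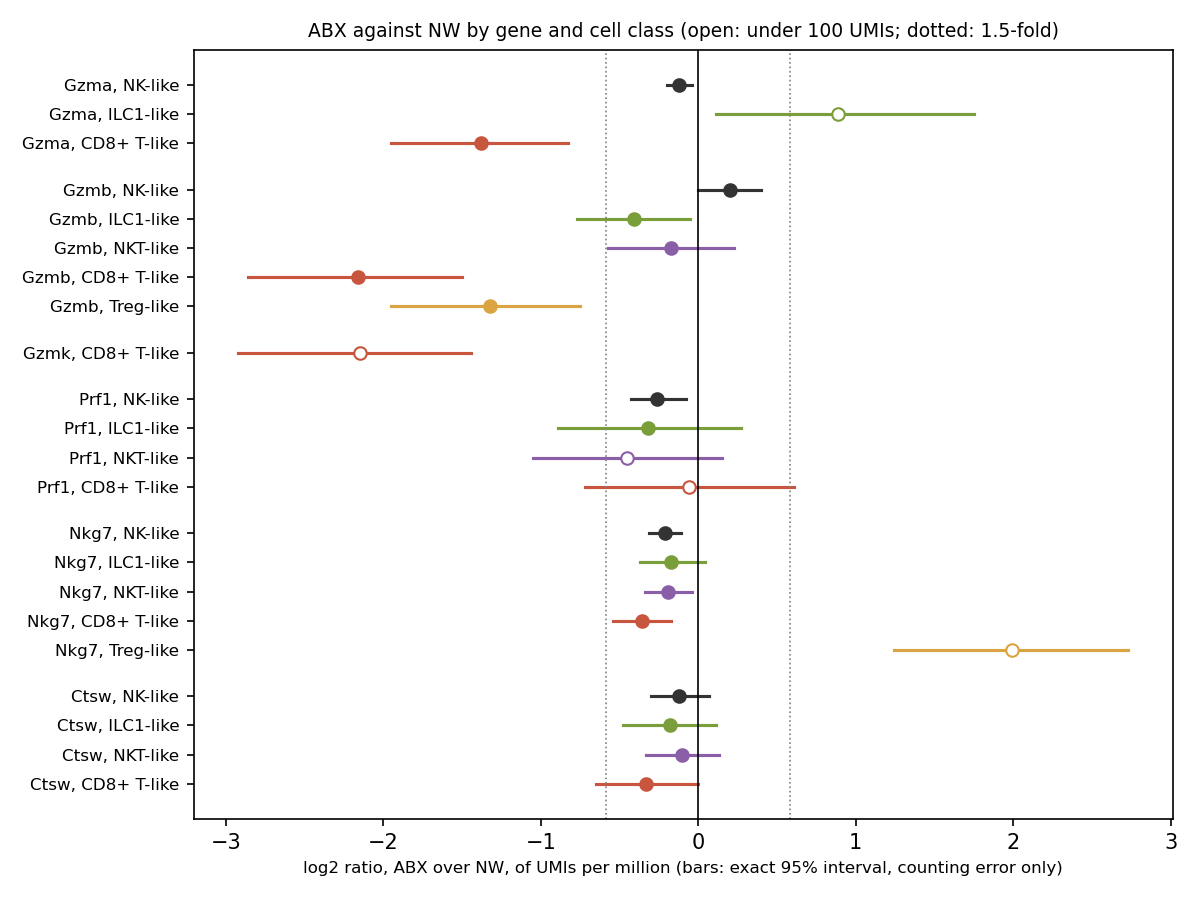
The log2 ratio of ABX to NW for the granule genes in 5 cell classes, with exact 95% intervals that cover counting error only. Open points rest on fewer than 100 UMIs over both libraries and dotted lines mark 1.5-fold. NK-like values lie between -0.26 and 0.20, and the 3 granzymes in CD8+ T-like cells between -2.16 and -1.38.

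Among the 4 cytotoxic classes, only CD8+ T-like cells had member granzymes that differed by 1.5-fold on at least 100 UMIs. Gzmk was found in 31 of 149 cells in NW, 20.8% (14.6% to 28.2%), and in 12 of 232 in ABX, 5.17% (2.70% to 8.86%). Gzmb was found in 26 cells in NW, 17.4% (11.7% to 24.5%), and in 16 in ABX, 6.90% (3.99% to 11%). The intervals of NW and ABX did not overlap for either gene. In macrophage-like cells the shares were 0.0875% and 0.0606% for Gzmk and 1.1% and 1.05% for Gzmb. Thinned to 1000 UMIs, the shares in CD8+ T-like cells were 10.3% and 2.59% for Gzmk and 8.47% and 2.40% for Gzmb, with 3 NW and 5 ABX cells too shallow to be thinned.

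In UMIs, the log2 ratio of ABX to NW was -2.15 (-2.92 to -1.44) for Gzmk, on 65 and 22 UMIs, -2.16 (-2.86 to -1.50) for Gzmb, on 77 and 26, and -1.38 (-1.95 to -0.83) for Gzma, on 76 and 44. The cells behind these numbers differed. A single NW cell held 45 of the 76 Gzma UMIs (59.2%) and a single NW cell 26 of the 77 Gzmb UMIs (33.8%), whereas no cell held more than 5 Gzmk UMIs. Without the cell with the most UMIs in each library, an alternative chosen after the data had been seen, the ratio was -0.69 for Gzma and -1.73 for Gzmb. Gzma was found in 11 cells of each library, 7.38% (3.74% to 12.8%) in NW and 4.74% (2.39% to 8.33%) in ABX, with intervals that overlapped.

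The other members had ratios nearer to 0 in CD8+ T-like cells, and these moved with the class definition. Prf1 had a log2 ratio of -0.06, on 34 and 49 UMIs, and was found in 16.1% and 15.5% of cells. Nkg7 was at -0.36 (-0.54 to -0.17) and Ctsw at -0.33 (-0.65 to -0.00), both less than 1.5-fold. Under 13 other settings, Nkg7 ran from -1.17 to -0.24 and was at least 1.5-fold lower in 3, Ctsw ran from -0.71 to -0.13 and was so in 1, and Prf1 ran from -1.34 to 0.25 and was so in 3. Gzma, Gzmb and Gzmk were at least 1.5-fold lower in each of the 13, which share many of their cells and UMIs. Of the 4 members with at least 100 UMIs, 2 were at least 1.5-fold lower in ABX (Gzma and Gzmb), against 2.66% of all 2970 genes of that depth, and 5.19% of the genes differed in either direction. Gzmk, with fewer UMIs, was not among those 4. The share of CD8+ T-like cells with at least 3 members was 28.2% in NW and 15.5% in ABX.

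**Figure D5:**
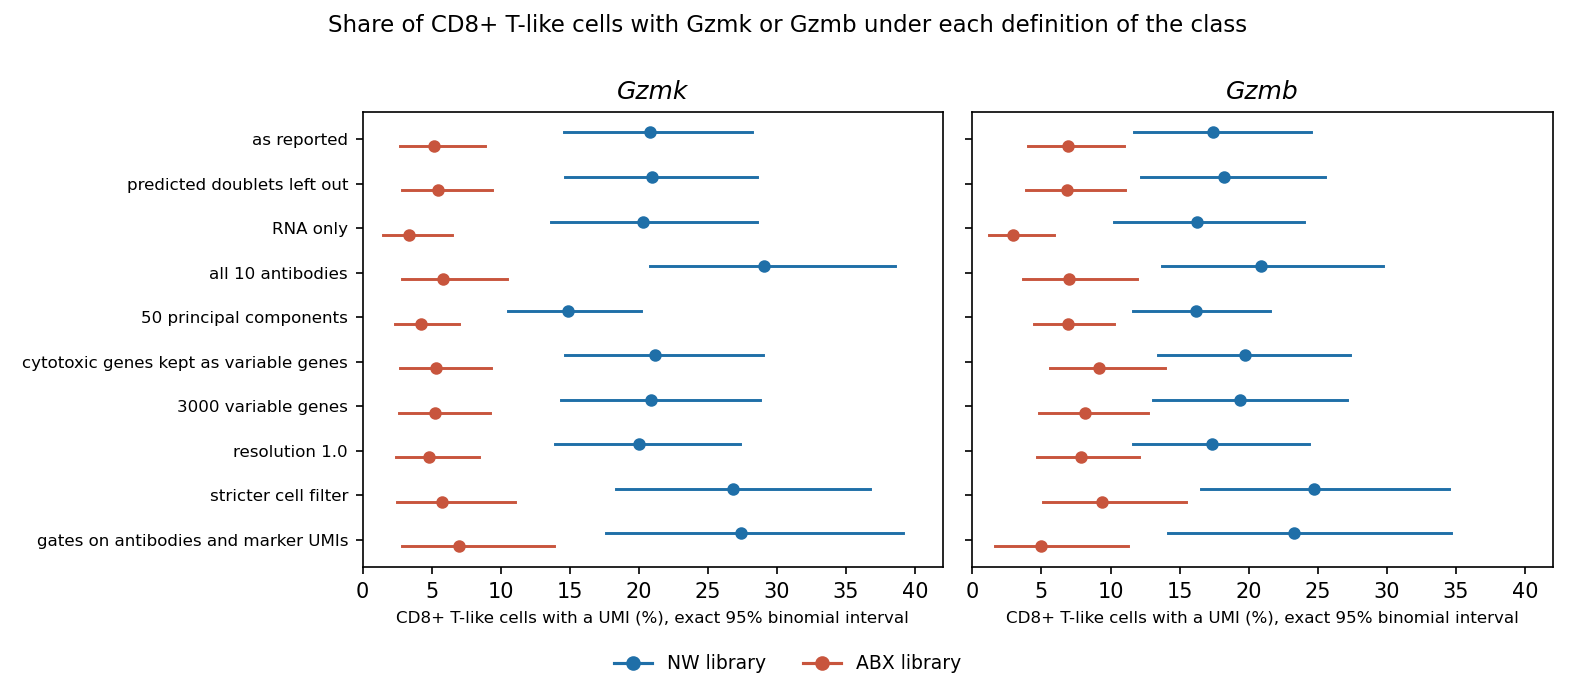
Percent of CD8+ T-like cells with a UMI of Gzmk or Gzmb in NW (blue) and ABX (red) under the class definition used here and 9 others, with exact 95% binomial intervals. For Gzmk the NW values run from 14.8% to 29.1% and the ABX values from 3.35% to 7%, and for Gzmb from 16.2% to 24.7% and from 2.93% to 9.35%.

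The plot of shares by class definition shows lower Gzmk and Gzmb shares in ABX under each of them. The definitions share many of their cells and UMIs, so their agreement is no separate evidence. Under 9 other definitions, among them cells gated on antibodies and marker UMIs and cells without predicted doublets, the share with Gzmk ran from 14.8% to 29.1% in NW and from 3.35% to 7% in ABX. The makeup of the class by CD62L antibody counts differed between the libraries, which also differed in antibody depth. Over all barcodes, NW held 18834984 antibody UMIs and ABX 13286580, and the limit of 20 was not adjusted for this. Cells with at least 20 CD62L antibody UMIs, as naive and central memory cells have, numbered 17 of 149 in NW and 55 of 232 in ABX, and held 1 Gzmk UMI in NW and none in ABX. Among the cells below that limit, Gzmk was found in 22.7% (15.9% to 30.8%) of 132 in NW and 6.78% (3.55% to 11.5%) of 177 in ABX, and Gzmb in 19.7% (13.3% to 27.5%) and 7.91% (4.39% to 12.9%). Predicted doublets numbered 6 in NW and 13 in ABX among CD8+ T-like cells. Such counts depend on the score limit, which Scrublet set by itself at 0.25 in NW and 0.435 in ABX. In ABX its own limit marked 0.605% of all cells, and the NW limit of 0.25 marked 2.55%. The part of cell states within the class in the difference was not tested.

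Gzmb had a lower CPM in ABX in Treg-like cells too. It had 294 UMIs in 59 of 264 cells in NW and 27 UMIs in 11 of 80 cells in ABX, a log2 ratio of -1.32 (-1.95 to -0.75), which ran from -1.72 to -0.62 under 12 other settings. The markers of the class itself moved with this difference. Foxp3, the factor that defines regulatory T cells, had a UMI in 88.6% of the Treg-like cells in NW against 58.7% in ABX, Ctla4 in 78.8% and 55%, and Cd3e in 80.7% and 66.2%, whose part was not tested. The share of cells with a Gzmb UMI, 22.3% (17.5% to 27.9%) and 13.8% (7.07% to 23.3%), had overlapping intervals. The Gzmb UMIs were concentrated in NW, where 10 cells held 10 or more, up to 42 in 1 cell. No ABX cell held more than 5. In this class 16.0% of all genes with at least 100 UMIs differed by 1.5-fold, more than in any of the 4 cytotoxic classes, and the summed macrophage markers were 1380 CPM in NW and 670 in ABX, whose part was not tested. Treg-like cells were 2.12% of NW and 0.629% of ABX cells, and their share of all Gzmb UMIs was 18.7% in NW and 2.13% in ABX. Nkg7 in Treg-like cells had 34 UMIs in 15 cells in NW and 31 in 12 cells in ABX, a log2 ratio of 1.99 (1.24 to 2.73) on few cells. Of the 34 Gzma UMIs in NW, 32 were in 1 cell, and none was found in ABX, which allows up to 12.6 CPM.

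The rest of the granule pathway was counted from lists of 48 genes, of which 46 were in the files and 29 had at least 100 UMIs in NK-like cells. Of these, 1 was at least 1.5-fold higher and 3 at least 1.5-fold lower in ABX, against 1.2% and 2.02% of all genes of this depth, and the median log2 ratio of the lists was -0.09. Lyst, the lysosomal trafficking regulator mutated in beige mice, which have giant granules, went from 249 to 384 CPM, a log2 ratio of 0.62 (0.38 to 0.87). Ap3b1, a subunit of the adaptor complex that sorts proteins to granules, went from 173 to 114 CPM, at -0.60 (-0.97 to -0.23). The chemokine genes Ccl3 and Ccl4, induced when NK cells are stimulated, went from 421 to 168 CPM, at -1.32 (-1.60 to -1.05), and from 440 to 215 CPM, at -1.03 (-1.28 to -0.78).

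By role, 0 of the 6 measured genes of the granule matrix and proteases, 0 of the 3 inhibitors of granule proteases (median -0.41) and 0 of 1 death ligand gene differed by 1.5-fold in NK-like cells. In the exocytosis list 1 of 9 was higher and 1 lower, and among the other genes of the cytotoxic program 0 of 10 were higher and 2 lower. No other granzyme had enough UMIs in NK-like cells to be counted.

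The genes whose level across classes was most like that of a member were found over 28 profiles, 14 classes in each of 2 libraries, among 10878 genes, as a description with no test. The profiles share libraries, and any free RNA in them. Eomes, Klra8, Itga2, Klre1, Klrb1c and Xcl1, named below, were markers used to name the classes. Their level across the classes was thus partly set by the naming. For Gzma they were the NK genes Eomes (Pearson r 0.886), Klra8 (0.849) and Klri2 (0.837). For Gzmb they were Itga2 (0.919), Il2rb (0.905) and AW112010 (0.902), and for Prf1 Samd3 (0.923), Cd7 and Klre1 (both 0.912). For Nkg7 they were Ms4a4b (0.967), Ccl5 (0.957) and Trip4 (0.936), and for Ctsw Klrb1c (0.966), Xcl1 (0.951) and Klrc1 (0.947). Among the members, Nkg7 and Ctsw were the closest pair (0.934) and Gzmb and Prf1 the most distant (0.665). Gzmk, with 207 UMIs in all, was too rare to be ranked.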

How the data were processed

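The authors deposited, for each of the NW and ABX libraries, a table of UMI counts per gene and antibody for every cell barcode, as given by the BD Rhapsody WTA pipeline 1.8 per the file headers (adjusted for errors in the UMIs, not normalized). The labels' processing notes name mm10, R 3.6.0 and Seurat 3.0.1. The counts are whole numbers, and genes that 1 of the tables did not list were set to 0 there.

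Cells with at least 500 gene UMIs, 200 genes and at most 25% mitochondrial UMIs were kept. The merged libraries were clustered with Seurat 5.3.0 (R 4.3.3) at resolution 0.6 by weighted nearest neighbours of 30 principal components (2000 variable genes, UMI count regressed out, the members and other cytotoxic genes left out) and the 8 antibodies of the methods, and lymphocyte clusters were clustered again, in 3 rounds. A name needed 3 markers at 1.5-fold and in 10% of cells. The naming rules and the third round were written after the clusters had been seen, and the members and lists were chosen with earlier results of these data known. Doublets were kept (Scrublet in scanpy 1.11.5 served for an alternative).

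UMIs were summed by class and library, and exact Poisson, ratio and binomial 95% intervals were computed with scipy 1.17.1, which cover counting error only, since UMIs of 1 cell are not independent. Ratios were given for classes with at least 50 cells in each library. Their intervals were run on counts simulated with Poisson error alone. That run could not show how the intervals hold where the UMIs of a gene are concentrated in few cells. No p-value was computed. Genes of the lists were named where they had at least 100 UMIs and a 1.5-fold ratio in NK-like cells, at most 10. The 3 genes most like a member were ranked by Pearson correlation of log2(CPM + 1) among genes with at least 500 UMIs.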

Additional observations from a re-analysis of the deposited data

Results flagged for a closer look

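Each of the following differences was picked out because the counting intervals of 2 classes lay on opposite sides of 0. With 1 library per condition the difference itself was not tested.

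For Gzma, the log2 ratio of ABX to NW was 1.28 in CD4+ T-like cells and 1.95 in DC-like cells, against -0.12 in NK-like and -1.38 in CD8+ T-like cells. The CD4+ T-like value rested on 50 UMIs in 6 NW cells, of which 39 were in 1 cell, and on 103 UMIs in 7 ABX cells, of which 57 were in 1 cell. The DC-like level was 3.25 CPM in NW and 12.6 in ABX, 0.602-fold (0.425 to 0.837) and 2.13-fold (1.65 to 2.76) the level of macrophage-like cells.

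For Gzmb, CD4+ T-like cells stood at 0.59, against -0.41 in ILC1-like, -2.16 in CD8+ T-like, -1.32 in Treg-like and -3.44 in ILC2-like cells. In ILC2-like cells, 68 of the 104 NW UMIs were in 1 cell, and without the cell with the most UMIs in each library the ratio was -2.44.

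For Nkg7, ILC2-like cells stood at 0.52, macrophage-like cells at 1.21 and DC-like cells at 0.74, against -0.21 in NK-like, -0.19 in NKT-like and -0.36 in CD8+ T-like cells. The levels behind the first 3 were low, at 35.3 and 50.6, 7.65 and 17.7, and 12.2 and 20.4 CPM in NW and ABX, where NK-like cells had 1920 and 1660. The same direction was found in the barcodes removed by the cell filter (5188 in NW and 5061 in ABX), which no comparison used and which were picked out because ABX lay above NW there. Nkg7 was at 6.46 CPM in NW and 16.4 in ABX in them, and Ctsw at 4.53 and 12.2 CPM, while Gzma was at 3.66 and 5.46 and Prf1 at 1.51 and 1.49. The 4 cytotoxic classes made up a larger share of the cells in ABX than in NW (2.29% against 2.12% for NK-like, 1.27% against 0.713% for ILC1-like, 2.49% against 1.6% for NKT-like and 1.82% against 1.19% for CD8+ T-like cells). Their part in these low levels was not tested.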

How the results depend on the processing

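No paired analysis was possible because there was 1 library per condition. Of 473 values recomputed under other settings, 388 kept their sign and moved by less than their counting interval, 45 kept it and moved further, and 40 changed sign, 16 of them where the interval of the reported value lay on 1 side of 0 and 24 where it held 0. In NK-like cells, the log2 ratio of Gzma was -0.01 with RNA only and with all 10 antibodies and -0.27 with 50 principal components, that of Gzmb was -0.08 with gates on antibodies and marker UMIs, that of Nkg7 was -0.32 with the stricter cell filter (1000 UMIs, 10% mitochondrial), and that of the share of cells with Nkg7 was -0.09 after thinning. The 16 were Gzmb in ILC1-like cells with RNA only (0.92), 50 principal components (0.22), the cytotoxic genes kept among the variable genes (0.95), resolution 1.0 (0.21) and the stricter filter (0.22), Nkg7 in NKT-like cells with RNA only (0.03), all 10 antibodies (0.04) and 50 principal components (0.03), Gzmb in CD4+ T-like cells with RNA only (-1.33), all 10 antibodies (-0.05), 50 principal components (-0.14), 3000 variable genes (-0.46) and the stricter filter (-0.05), Gzma in CD4+ T-like cells with RNA only (-2.15), and Gzma in ILC2-like cells with RNA only (0.62) and without predicted doublets (0.56). Among the 24 were Gzmb in NKT-like cells, with 50 principal components (0.70), all 10 antibodies (0.56), the cytotoxic genes kept (0.52), the cell with the most UMIs left out (0.31) and resolution 1.0 (0.03), and Nkg7 in gdT-like cells, which ran from -0.42 to 2.01. The cause was not tested. ILC1-like cells were not found with all 10 antibodies or 3000 variable genes and were not gated. The ratio in CD8+ T-like cells ran from -4.74 to -0.69 for Gzma, -3.82 to -1.73 for Gzmb, -2.66 to -2.0 for Gzmk and -1.34 to 0.25 for Prf1. With a minimum of 20 UMIs, the share of all genes at 1.5-fold was 15.1% in NK-like, 21.1% in ILC1-like, 16.9% in NKT-like and 20.1% in CD8+ T-like cells. Depth limits Gzmk most, with 207 UMIs in all.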

Other observations

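Gzmc, a granzyme that is not among the 6 members, was highest in ILC1-like cells among the 4 cytotoxic classes and was named after its values had been seen. It had 77 UMIs in NW and 55 in ABX (252 and 106 CPM) in 3.37% and 4.35% of ILC1-like cells, against 3 and 1 UMIs in NK-like cells, 26 and 0 in NKT-like cells (38.0 CPM in NW) and 0 and 2 in CD8+ T-like cells. The log2 ratio was -1.25 (-1.78 to -0.74), on these few cells.

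Of the genes of the cytotoxic lists with enough UMIs, ILC1-like cells had 0 of 21 at least 1.5-fold higher and 2 lower in ABX (Gzmc and Ccl4), NKT-like cells 0 of 24 higher and 1 lower (Ccl4), and CD8+ T-like cells 3 of 30 higher and 3 lower. Of all genes of this depth, 1.55% were higher and 3.34% lower in ILC1-like cells, 1.66% and 1.69% in NKT-like cells, and 2.53% and 2.66% in CD8+ T-like cells. Ccl4 went from 466 to 260 CPM in ILC1-like cells and from 197 to 58.1 in NKT-like cells, and in CD8+ T-like cells it was at 118 and 122. In CD8+ T-like cells, Ifng, the gene of interferon gamma, was at 124 CPM in NW and 59.8 in ABX (log2 ratio -1.06, -1.57 to -0.55). Zeb2, a transcription factor gene, was at 183 and 120 (-0.62), and Ctsl, a lysosomal protease gene, at 116 and 29.9 (-1.96). An Ifng UMI was found in 24.8% and 15.1% of cells. The shares were closer than the CPM for Zeb2, at 24.2% and 20.3%, and for Ctsl, at 11.4% and 8.19%. The macrophage markers summed to 3190 and 2980 CPM in this class, and their part was not tested. Tbx21, the gene of T-bet, stood at 68.3 and 104 (0.61), Stx7 at 48.1 and 90.7 (0.91) and Ccl3 at 94.7 and 150 (0.67). These genes were chosen after their values had been seen.

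Cells left without a name, 1570 in NW and 1562 in ABX, held Nkg7 at 63.8 and 136 CPM and Gzma at 21.8 and 44.4. Of their clusters, that led by Cd209b, which carried both lymphocyte and macrophage genes (250 and 302 cells), had a Gzma UMI in 8.40% and 10.3% of cells and Nkg7 in 26.8% and 42.1%.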
